A study of Homo sapiens with 11 samples.

Results

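The natriuretic peptide genes NPPA and NPPB and the stretch-responsive gene ANKRD1 were followed here, 3 of the 36601 genes in the feature lists. They were picked by their symbols, with no threshold on a measured value. Single-cell RNA came from cells derived from H9, a human embryonic stem cell line, and all were collected on day 42.5. One group was made of cardioids (self-organised, heart-like tissues with a cavity) with PD173074, an inhibitor of the fibroblast growth factor receptors, another of cardioids without PD173074, and the last of cells grown as a 2D culture. The labels give 3, 5 and 3 libraries to these groups in that order, and they state neither when the inhibitor was added nor whether the libraries of a group came from separate cultures.

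NPPA encodes the precursor of atrial natriuretic peptide (ANP) and NPPB that of B-type natriuretic peptide (BNP), hormones of the heart that act on guanylyl cyclase receptors to promote salt excretion and relax vessels. In the human heart NPPA is typical of atrial muscle and of the early chamber and trabecular muscle, whereas NPPB is best known as a ventricular gene that is induced by wall stress. ANKRD1 encodes a protein of ankyrin repeats that sits on titin in the sarcomere and also enters the nucleus, is induced by stretch, and is widely used as a target of the YAP and TEAD transcription factors, outside muscle too.

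On GRCh38.p14, RefSeq places NPPA at chr1:11845709-11847783 and NPPB at chr1:11857464-11858945, with 9680 bases between them, and ANKRD1 at chr10:90912096-90921087. The features carried them as ENSG00000175206, ENSG00000120937 and ENSG00000148677.

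The promoters of NPPA and ANKRD1 are printed because these genes peaked in different clusters of cells, although they were also found together in single cells, as described further on. The promoter set used here held no entry for NPPB. Each RefSeq entry (GRCh38.p14, minus strand) runs from 250 bases before the start of the gene to 50 after it, at chr1:11847734-11848033 for NPPA and chr10:90921038-90921337 for ANKRD1. Capitals mark every match, on either strand, of 3 motifs: GGAATG, known from TEAD factors, AAGTG, known from NKX2-5, and GATAA, known from GATA factors. No matches overlapped.
NPPA promoter: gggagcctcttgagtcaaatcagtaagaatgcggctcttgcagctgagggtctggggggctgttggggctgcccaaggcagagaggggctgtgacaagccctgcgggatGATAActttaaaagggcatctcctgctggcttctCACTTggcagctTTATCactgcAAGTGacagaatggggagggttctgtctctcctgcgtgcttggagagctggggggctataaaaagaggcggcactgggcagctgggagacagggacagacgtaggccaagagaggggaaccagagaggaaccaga
ANKRD1 promoter: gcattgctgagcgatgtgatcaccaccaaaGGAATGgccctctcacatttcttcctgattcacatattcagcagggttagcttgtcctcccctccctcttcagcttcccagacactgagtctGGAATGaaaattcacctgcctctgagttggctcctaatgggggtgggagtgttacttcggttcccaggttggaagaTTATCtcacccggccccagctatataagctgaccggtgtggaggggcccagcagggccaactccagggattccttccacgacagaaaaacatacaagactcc
The NPPA window held 2 matches of AAGTG and 2 of GATAA, and none of GGAATG. The ANKRD1 window held 2 matches of GGAATG, 1 of GATAA and none of AAGTG. Among 35116 promoter windows of the same length, GGAATG was found in 14% and at least 2 copies of it in 1.37%. AAGTG was found in 43.1% and at least 2 copies of it in 12.4%, and GATAA in 22.7% and at least 2 copies in 4.8%. A match of letters is not evidence that a factor binds.

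The libraries of a group turned out to be repeat runs of the same droplets. All 16 pairs within a group shared between 99.3% and 99.9% of their cell barcodes, against 0.195% to 0.737% for pairs from different groups. Counts agreed within sampling noise in 12 of these pairs, with a chi-square over its degrees of freedom of 0.542 to 0.852. That is closer than independent draws would agree. The 4 others, each with run 3 without PD173074, the run of the fewest UMIs, differed more, with a chi-square over its degrees of freedom of 6.50 to 7.08. Each group was treated as 1 sample, its values are means over its runs, and no test between groups was possible. Intervals given after a value are 95% exact intervals that cover counting error only, not the spread between cultures. Run totals were 36127841 to 37765195 UMIs with PD173074, 12266166 to 24495291 without it and 43908067 to 46304366 in 2D culture, and 4597, 3534 and 8183 cells were kept.

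Cells were clustered without the 3 genes. Clusters counted as cardiomyocyte-like had summed cardiomyocyte markers of at least 16100 CPM (UMIs of a gene in every 1000000 UMIs of the same cells), against at most 3465 CPM in the other clusters. They held 3394 cells (73.8%) with PD173074, 3145 (89.0%) without it and 7237 (88.4%) in 2D culture. The groups filled different clusters. Cells with PD173074 made up most of cluster 2, led by OPCML and NR2F1, cluster 6, led by FGF12, and cluster 9, led by ADARB2 and SHOX2. Cells without it made up most of cluster 3, led by PTGER3 and TBX3. Those of 2D culture made up most of clusters 0 (GRIA4, ALK) and 1 (FABP7, CKM) and of cluster 11, led by the ventricular genes MYL2 and MYH7. Cluster 8 was led by genes of DNA replication and cluster 12 by genes of mitosis.

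The sample without PD173074 held cells in clusters that belonged mostly to another group, and the levels of NPPA and ANKRD1 in it moved with how these are treated. It supplied between 14% and 14.7% of each of clusters 2, 6, 9 and 10 (the last epithelial-like), and between 8.3% and 11.3% of clusters 0, 1, 7 and 11. Within these clusters its cells hardly differed from the majority: in cluster 2, 0 genes were higher and 2 lower past 2-fold among 7765 tested with PD173074 over without it, and in cluster 0, 0 of 7877 differed without PD173074 over 2D culture. In the mixed cluster 12, 59 genes were higher and 62 lower with PD173074 than without it among 8135. The origin of those cells was not tested. Values are therefore also given after leaving out, for each group, clusters with over 75% of their cells from another group. This removed 67 cardiomyocyte-like cells with PD173074 (1.97%), 1340 without it (42.6%) and 64 of 2D culture (0.88%).

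NPPA was highest with PD173074. In cardiomyocyte-like cells it stood at 113 CPM with PD173074 (109 to 117, runs at 112, 113 and 114), at 22.1 CPM without it (20 to 24.4, runs from 21.4 to 24.3) and at 13.1 CPM in 2D culture (11.9 to 14.3, runs from 12.7 to 13.7). The runs read the same cells, so their ranges show only the spread of sequencing. The log2 ratio was 2.35 (2.20 to 2.51) with PD173074 over without it and 3.11 (2.97 to 3.26) over 2D culture. Both passed the rule for a call, which asked for 20 CPM in the higher group and a whole interval beyond 2-fold. In the first comparison 2.74% of 8065 tested genes were called higher and 2.01% lower, and in the second 4.99% of 8120 were called higher and 2.76% lower. Without PD173074 over 2D culture the log2 ratio of NPPA was 0.76 (0.56 to 0.96) and was not called.

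The order of the lower 2 groups depended on the cells shared between clusters. Leaving out clusters mostly of another group, NPPA stood at 116 CPM with PD173074, 7.63 CPM without it and 13.1 CPM in 2D culture. The log2 ratio with PD173074 over without it was then 3.92 (3.60 to 4.26), still called, against 3.19% of genes called higher and 2.51% lower. Without PD173074 over 2D culture it was -0.78 (-1.14 to -0.43), below 0, where it had been above 0 over all cells.

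NPPB ran the other way. It stood at 0.186 CPM with PD173074 (0.054 to 0.46), from 3, 5 and 5 UMIs in the 3 runs over 3394 cells, at 2.34 CPM without it (1.69 to 3.17, runs from 1.95 to 2.68) and at 15 CPM in 2D culture (13.8 to 16.4, runs from 14.7 to 15.4). Over all cardiomyocyte-like cells, the order of the 3 levels was the opposite of that of NPPA. Without clusters mostly of another group it was not, both genes being lower without PD173074 than in 2D culture. The log2 ratio was -3.66 (-5.50 to -2.24) with PD173074 over without it, -2.68 (-3.17 to -2.23) without it over 2D culture and -6.34 (-8.12 to -5.02) with PD173074 over 2D culture. No group reached the 20 CPM that a call required. A single cell of 2D culture carried 194.7 of the 530 NPPB UMIs there (36.8%), and without that cell 2D culture stood at 9.51 CPM and the second of these ratios at -2.02. Leaving out clusters mostly of another group gave 0.191 CPM with PD173074, 1.88 CPM without it and 15.1 CPM in 2D culture. One cell gave 48.0% of the UMIs behind the value without PD173074, which was 0.982 CPM when that cell was left out.

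ANKRD1 was also highest in 2D culture among cardiomyocyte-like cells. Its level was 13.1 CPM with PD173074 (11.7 to 14.6, runs from 12.7 to 13.4), 17.3 CPM without it (15.4 to 19.3, runs from 15.6 to 19.1) and 46.2 CPM in 2D culture (44.0 to 48.5, runs from 44.9 to 47.2). It was called lower without PD173074 than in 2D culture, with a log2 ratio of -1.42 (-1.60 to -1.24), where 0.114% of 7879 tested genes were called lower and 0.85% higher. With PD173074 over 2D culture the log2 ratio was -1.82 (-2.0 to -1.64), also called lower. Between the cardioids it was -0.40 (-0.64 to -0.17), with both groups under 20 CPM. A single cell of cluster 12 carried 59.8 ANKRD1 UMIs without PD173074, and leaving it out gave 14 CPM there and a ratio of -0.09 (-0.34 to 0.15). Leaving out clusters mostly of another group, ANKRD1 stood at 12.3 CPM with PD173074, 9.18 CPM without it and 46.6 CPM in 2D culture, and the ratio between the cardioids was 0.42 (0.08 to 0.77), above 0. That same cell gave 62.6% of the value without PD173074, and when it too was left out the level was 3.44 CPM and the ratio 1.83 (1.33 to 2.38). Without these clusters but with that cell kept, the ratio without PD173074 over 2D culture was -2.34 (-2.66 to -2.05). There 0.666% of genes were called lower and 1.63% higher. Leaving the cell out as well gave -3.76 (-4.28 to -3.28).

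**Figure D1:**
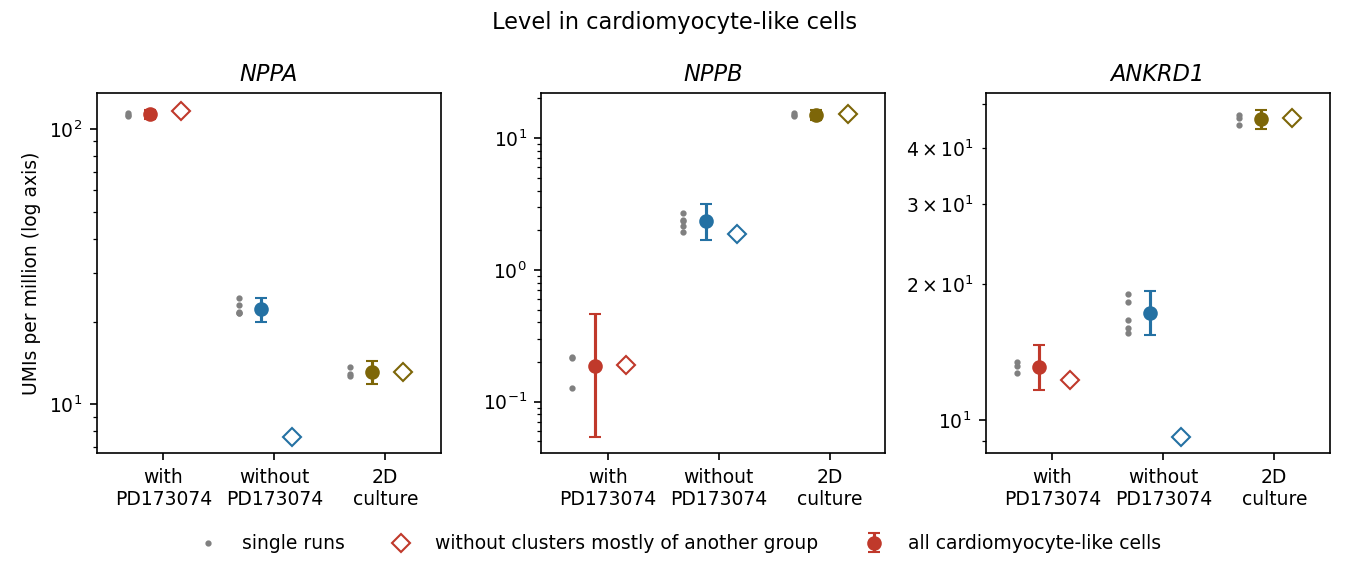
Levels of NPPA, NPPB and ANKRD1 in cardiomyocyte-like cells, in CPM on a log axis whose range differs between panels, by group. Filled points with 95% counting intervals are all such cells (NPPA at 113 CPM with PD173074 and at 22.1 CPM without it), grey dots are single runs, and open diamonds leave out clusters mostly of another group (NPPA at 7.63 CPM without PD173074).

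Over all cells of a sample the picture of ANKRD1 changed, because cells other than cardiomyocytes carried much of it. It stood at 52.3 CPM with PD173074, 40.7 CPM without it and 74.2 CPM in 2D culture, and the log2 ratio between the cardioids was 0.36 (0.25 to 0.48). NPPA over all cells stood at 74.6, 19.0 and 10.7 CPM and NPPB at 0.146, 2.26 and 12.4 CPM in the same order of groups. In whole samples, fewer cells of a type and less RNA per cell cannot be told apart.

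Within cardiomyocyte-like cells, NPPA was highest in cluster 2. There it reached 210 CPM with PD173074 (200 to 220) and 224 CPM without it (194 to 257). Cluster 6 had 113 CPM with PD173074 and 93.1 CPM without it, and cluster 9 had 38.4 CPM with PD173074 and 33.6 CPM without it. The intervals of both groups overlapped in each of these clusters. NR2F1, a regulator of atrial identity, stood at 123 CPM with PD173074 and at 78.8 CPM without it in cluster 2, at 80.6 and 69.7 CPM in cluster 6, and at 31.8 and 19.1 CPM in cluster 9. NR2F2, its close relative, was highest in cluster 9, at 574 CPM with PD173074 and at 599 CPM without it, so NPPA ranked these 3 clusters as NR2F1 did and not as NR2F2 did.

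The mixed clusters 12 and 4 showed NPPA apart between the cardioids. Mitotic cluster 12 had 108 CPM with PD173074 (91.9 to 126), 16.1 CPM without it (8.65 to 27.5) and 17.1 CPM in 2D culture (9.28 to 28.9). Its log2 ratio with PD173074 over without it was 2.74 (1.93 to 3.67) and was called higher, as were 0.725% of 8135 genes there. One cell gave 30% of the NPPA UMIs of this cluster with PD173074, where 49 of 156 cells held at least 1, and one cell gave 53.0% of those without it. Leaving out both cells gave 76.2 CPM with PD173074 and 7.69 CPM without it, a log2 ratio of 3.31 (2.16 to 4.76). In 2D culture one cell gave 39.0%, and the level was 10.5 CPM when that cell was left out. Cluster 4, led by TFPI2, had 9.95 CPM with PD173074, 1.10 CPM without it and no NPPA UMI in 123 cells of 2D culture. Its log2 ratio between the cardioids was 3.18 (1.14 to 6.52), under the 20 CPM that a call required.

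The remaining muscle clusters were low in NPPA, with an exception in 2D culture. Cluster 3 had 8.09 CPM without PD173074, and clusters 0 and 1 had 4.95 and 6.14 CPM without PD173074 and 4.51 and 5.31 CPM in 2D culture. The exception was the MYL2 cluster 11, with 83.1 CPM without PD173074 from 42 cells (53.0 to 124) and 118 CPM in 2D culture from 450 cells (104 to 133). One cell gave 45.8% of the value without PD173074, which was 46.8 CPM when it was left out. MYL2 was at 2053 CPM without PD173074 and 1316 CPM in 2D culture in cluster 11, while NR2F1 gave no UMI without PD173074 and 1.3 UMIs in 2D culture there, so NPPA was high both in a cluster with NR2F1 and in one without it.

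NPPB was concentrated in that MYL2 cluster. It had 62.0 CPM without PD173074 (36.5 to 98.4) and 138 CPM in 2D culture (123 to 155), and the 16 cells with PD173074 held none. In cluster 8 of 2D culture NPPB was at 60.0 CPM, but 97.5% of it came from the single cell named above. That cell had 11985 UMIs and also carried 91.7 UMIs of MYL2, 109.3 of ACTA1 (skeletal alpha actin, of the fetal gene programme), 27.7 of NPPA and 19.7 of ANKRD1. In clusters 2, 6 and 9 with PD173074, where NPPA was high, NPPB gave 2.0, 0.7 and 0 UMIs. Clusters 0 and 1 of 2D culture had 0.499 and 1.46 CPM.

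ANKRD1 was highest in the same cluster 11, at 209 CPM with PD173074 from 16 cells (134 to 311), 618 CPM without it (530 to 717) and 613 CPM in 2D culture (580 to 646). Among clusters filled by cells with PD173074, cluster 6 had 25.9 CPM with PD173074 and 11.7 CPM without it, and cluster 2 had 4.53 CPM with PD173074 and 17.1 CPM without it. When the highest cell of each group was left out, cluster 6 had 18.3 CPM with PD173074 and 5.89 CPM without it, and cluster 2 had 3.87 CPM with PD173074 and 3.11 CPM without it. Mitotic cluster 12 had 41.9 CPM with PD173074, 91.3 CPM without it and 38 CPM in 2D culture, and the highest cell gave 40.1%, 80.2% and 13.2% of these values. Leaving those cells out gave 25.4 CPM with PD173074, 18.5 CPM without it and 33.5 CPM in 2D culture. Clusters 0 and 1 had at most 5.86 CPM. Cluster 8 had 6.31 CPM without PD173074 and 46.4 CPM in 2D culture. The log2 ratio of -2.88 (-4.24 to -1.79) was called lower, where 3 genes were lower and 15 higher among 8214. Without the highest cell of each group it was -3.16 (-5.37 to -1.61), still called. Leaving out only that of 2D culture gave -2.08 (-3.46 to -0.97), not called.

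**Figure D2:**
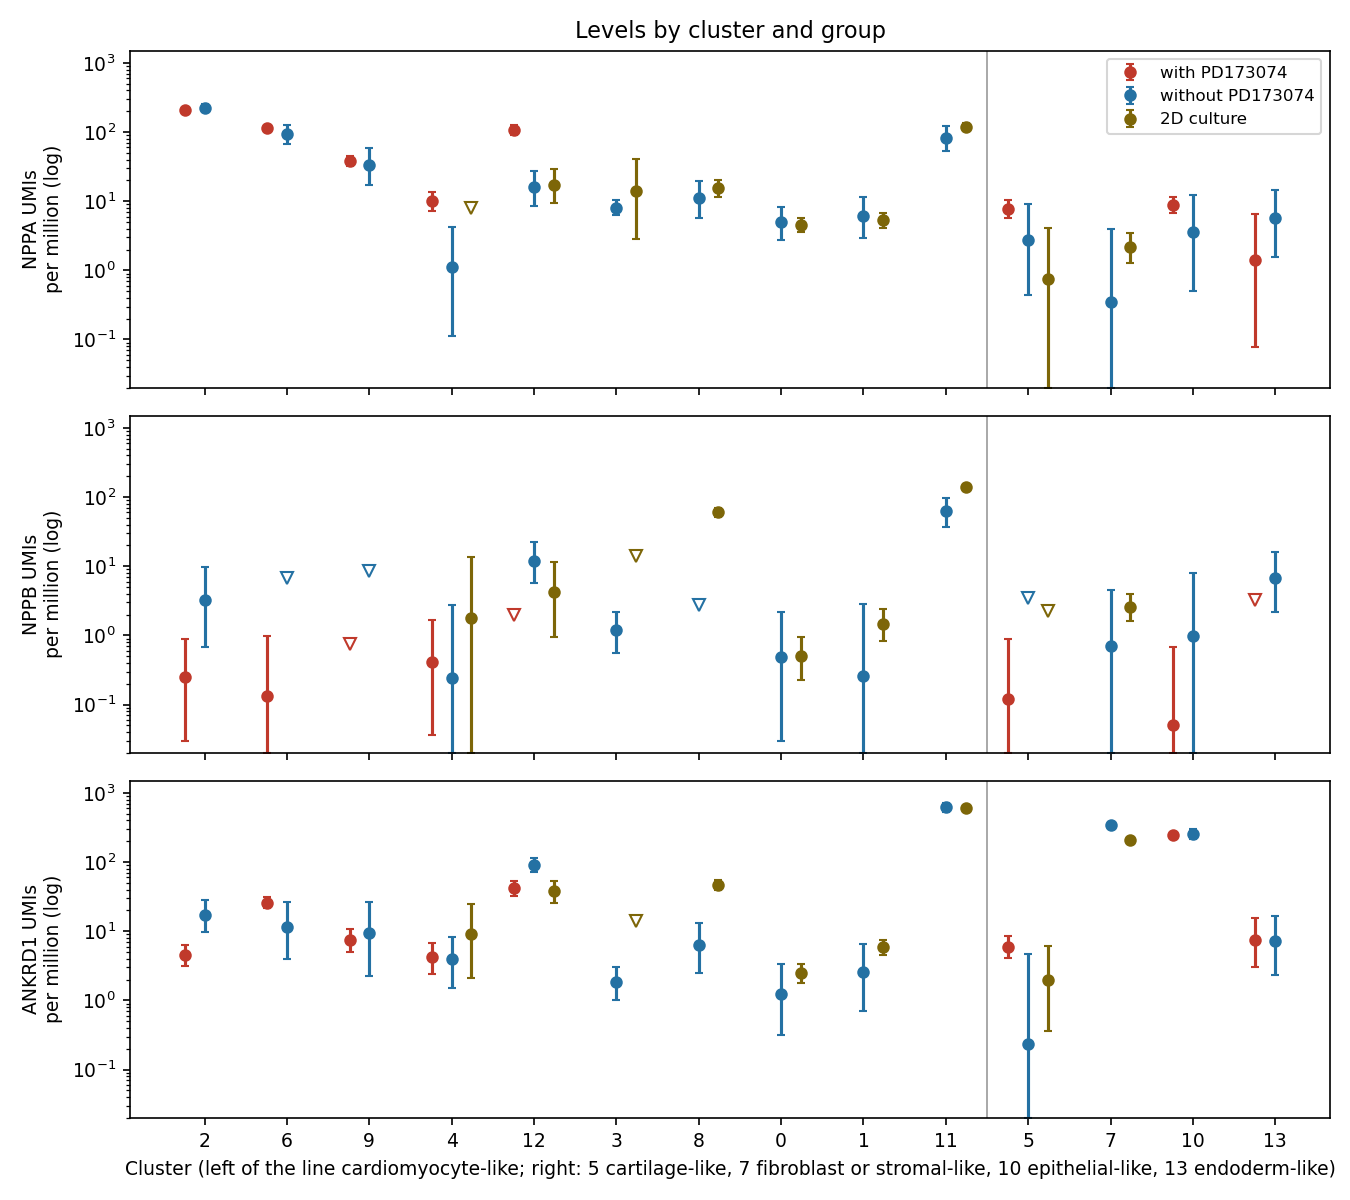
Levels of the 3 genes by cluster and group in CPM on a log axis, for clusters with at least 40 cells of a group, with 95% counting intervals; bars that meet the lower edge continue below it, and open triangles mark 0 UMIs at the level that 3 UMIs would give. NPPA peaks in cluster 2 (210 CPM with PD173074, 224 CPM without it), while NPPB and ANKRD1 peak in cluster 11 (138 and 613 CPM in 2D culture).

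A few clusters thus held most of the UMIs. With PD173074, 64.5% of NPPA UMIs in cardiomyocyte-like cells lay in cluster 2, which held 34.7% of all their UMIs, and 21.7% in cluster 6. Without it, 51.5% of NPPA lay in cluster 2, which held 5.08% of all UMIs. In 2D culture, cluster 11 held 6.18% of all UMIs but 55.7% of NPPA, 56.9% of NPPB and 81.9% of ANKRD1. Without PD173074 that cluster held 1.59% of all UMIs, 41.9% of NPPB and 56.7% of ANKRD1. When the level without PD173074 in each cluster was weighted by the cluster mix with PD173074, over the 5 clusters with at least 50 cells in both, NPPA was at 116 CPM with PD173074 and at 108 CPM without it, a log2 ratio of 0.10. Most of that weight fell on clusters 2, 6 and 9, to which the limit on shared cells applies. A common mix with 2D culture lacks cluster 11 for its few cells in cardioids. There ANKRD1 was at 12 CPM without PD173074 and 14.1 CPM in 2D culture. The log2 ratio was -0.23 over 5 clusters with 44.4% of the UMIs. That level without PD173074 includes the cell of cluster 12 with 59.8 ANKRD1 UMIs. Leaving this cell out took cluster 12 without PD173074 from 91.3 to 18.5 CPM, and the mix was not recomputed. With PD173074, ANKRD1 was at 14.5 CPM, against 16.9 CPM in 2D culture. The log2 ratio was -0.22 over clusters 4 and 12, which held 23.9%. Single cells weighed on this value too. Without the highest cell of each group, cluster 4 had 0.33 CPM with PD173074 and 3.65 CPM in 2D culture. Cluster 12 then had 25.4 and 33.5 CPM. This mix was not recomputed either.

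**Figure D3:**
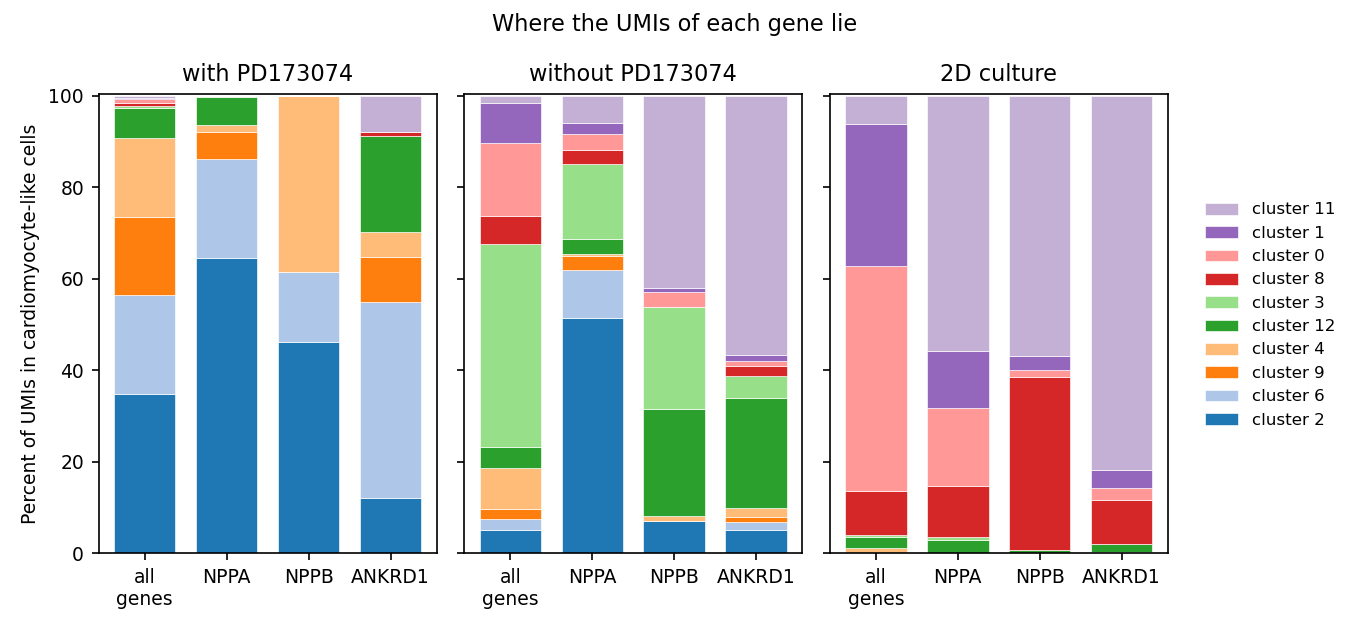
Percent of the UMIs in cardiomyocyte-like cells that lay in each cluster, for all genes together and for each of the 3 genes, by group; segments of a bar add to 100%. Cluster 2 holds 64.5% of NPPA with PD173074, and cluster 11 holds 81.9% of ANKRD1 in 2D culture; the NPPB bar with PD173074 rests on 4.3 UMIs.

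Outside muscle, ANKRD1 was above its muscle level in epithelial-like and stromal-like cells, as given below. NPPA was read in other classes at a fraction of its muscle level, as cardiomyocyte markers were. Cardiomyocyte markers, which cells of other types should lack, were read there at 3.31% to 19.9% of their cardiomyocyte-like level. NPPA was read at 1.26% to 25.7% of its own, the highest share resting on 4.0 UMIs in endoderm-like cells without PD173074. Within a class the shares of NPPA and of the markers differed either way. Without PD173074, NPPA was at 1.58% against 13.9% for the markers in stromal-like cells, and at 16.4% against 8.1% in epithelial-like cells. These NPPA shares rest on 0.4 and 2.2 UMIs. NPPB was read in at most 4.8 UMIs per group and class, except 21.0 UMIs in the fibroblast or stromal-like cells of 2D culture (2.58 CPM), where 1 cell gave 50.8% of them.

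Epithelial-like cells, marked by GABRP and VTCN1, had ANKRD1 at 242 CPM with PD173074 (231 to 255, 533 cells) and 258 CPM without it (219 to 302, 87 cells). Fibroblast or stromal-like cells, led by COL1A1 and LOX, had 348 CPM without PD173074 (315 to 384, 66 cells) and 207 CPM in 2D culture (198 to 217, 703 cells). These levels were 448% to 2012% of the cardiomyocyte-like ones. Cartilage-like cells, by contrast, had 5.99 CPM with PD173074, 0.231 CPM without it and 1.98 CPM in 2D culture. Levels of CCN1 and CCN2, matrix-associated proteins used as YAP targets, were high in the same 2 classes: CCN1 was at 1811 CPM in epithelial-like cells with PD173074, and CCN2 was at 1460 CPM in stromal-like cells of 2D culture. The early response gene EGR1, which dissociation can induce, stood at 690 CPM in epithelial-like cells with PD173074, against 248 CPM in cardiomyocyte-like cells of that group. The part of dissociation in the ANKRD1 levels was not tested.

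Detection in single cells gave the same order of groups as the levels for NPPA and NPPB, while for ANKRD1 the shares of both cardioid groups lay close together below 2D culture. After thinning every cell to 2000 UMIs, NPPA was found in 13% of cardiomyocyte-like cells with PD173074 (11.8 to 14.2), 3.31% without it (2.69 to 4.03) and 1.51% in 2D culture (1.23 to 1.84). The share in cartilage-like cells, which should lack it, was 0.898%, 0.804% and 0.141% in the same groups, with median depths before thinning of 8197, 4882 and 5071 UMIs, against 6288, 5159 and 4292 UMIs in cardiomyocyte-like cells. Leaving out clusters mostly of another group put NPPA at 13.2% with PD173074, 1.03% without it (0.606 to 1.63) and 1.52% in 2D culture, so the last 2 intervals overlapped and the share without PD173074 lay within the interval of its cartilage-like cells. Unthinned shares were 23.0%, 6.20% and 3.01%.

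NPPB was found, in thinned cells, in 0.022% of the cardiomyocyte-like ones with PD173074 (an upper bound of 0.161), 0.298% without it (0.133 to 0.573) and 0.592% in 2D culture (0.421 to 0.808). It was not found in cartilage-like cells of the last 2 groups, which allows shares of up to 2.01% and 1.27%, and it was found in 0.112% of those with PD173074. The cartilage-like cells of these 2 groups were too few to place the muscle shares above or below a background. The ANKRD1 share was 1.16% with PD173074, 1.07% without it (0.444% after leaving out clusters mostly of another group) and 2.92% in 2D culture. In cluster 11 of 2D culture 35.0% of cells had ANKRD1, 9.64% had NPPA and 7.08% had NPPB. The ANKRD1 share was 20.8% in epithelial-like cells with PD173074 and 15.7% in stromal-like cells of 2D culture, against 0.225% and 0.141% in cartilage-like cells of those groups.

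Expression was uneven even within a cluster. In cluster 2 with PD173074, 598 of 1376 cells (43.5%) had at least 1 NPPA UMI in some run, and 5% of the cells held 48.3% of the UMIs. In cluster 11 of 2D culture, 241 of 450 cells had ANKRD1, 105 had NPPA and 59 had NPPB, and 5% of the cells held 42.0%, 71.7% and 90.8% of the UMIs of these genes. At least 10 UMIs were read in 44 cells for ANKRD1, 7 for NPPA and 9 for NPPB.

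The 3 genes were found in the same cells of 2D culture more often than their shares within clusters would give by multiplication. In thinned cardiomyocyte-like cells, NPPA and NPPB were found together in 13.3 cells (mean over runs), against 2.87 as the product of shares summed over clusters, a ratio of 4.65. NPPB and ANKRD1 were together in 24.7 cells against 10.2, a ratio of 2.41, and NPPA and ANKRD1 in 27.0 cells against 14.2, a ratio of 1.90. In each of these pairs the product lay below the counting interval. MYL2 stood nearer to its product with NPPA (23.0 cells against 18.4) than with ANKRD1 (94.7 against 62.3) or with NPPB (23.7 against 12.6). Within cluster 11, 75.6% of NPPB-positive cells had ANKRD1, against 31.9% of NPPB-negative cells, and 29.1% of NPPA-positive cells had NPPB, against 4.74% of NPPA-negative cells.

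With PD173074, NPPB was found in under 1 thinned cell on average, too few for its pairs, and no difference in pairing between groups was tested. NPPA and ANKRD1 were together in 9.3 cells against a product of 3.85, and 2.32% of NPPA-positive cells had ANKRD1, against 0.99% of NPPA-negative cells. NPPA and NR2F1 were together in 86.7 cells against 65.3, a ratio of 1.33. Without PD173074, NPPA and ANKRD1 were together in 4.6 cells against 2.64, NPPB and ANKRD1 in 4.8 against 1.58, and NPPA and NPPB in 2.0 against 0.60. After leaving out clusters mostly of another group these 3 pairs were found in 0, 1.0 and 0.2 cells, too few for a comparison. Doublets were not removed, and their part in the pairs was not tested.

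**Figure D4:**
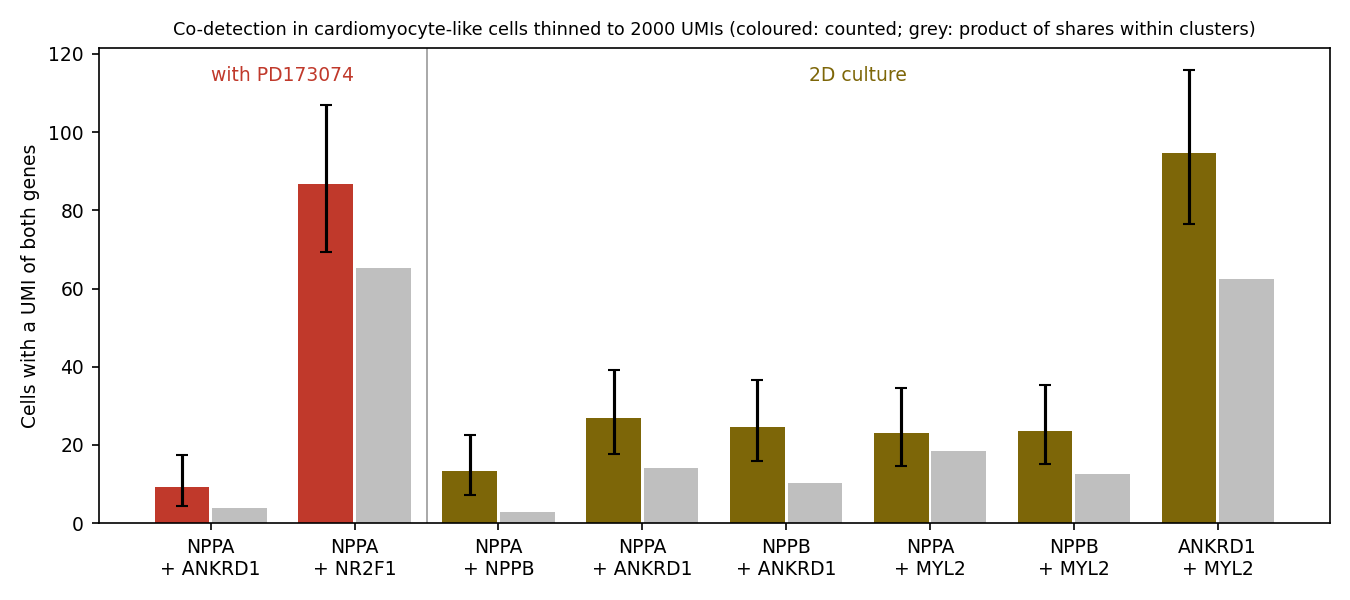
Cells with a UMI of both genes among cardiomyocyte-like cells thinned to 2000 UMIs, as the mean over runs with 95% counting intervals (coloured), beside the product of the 2 shares summed over clusters (grey). With PD173074 the pair of NPPA and NR2F1 was found in 86.7 cells against 65.3, and in 2D culture the pair of NPPA and NPPB in 13.3 cells against 2.87.

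ANKRD1-positive cells of cluster 11 in 2D culture differed from their neighbours in many of the same genes. The 241 positive cells had NPPB at 218 CPM and NPPA at 171 CPM, against 4.92 CPM and 28.3 CPM in the 209 negative ones. MYL2, the ventricular regulatory light chain, was at 1770 CPM in positive and 554 CPM in negative cells, ACTA1 at 1649 and 552 CPM, and CCN2 at 130 and 27.9 CPM. One positive cell held 64.0 of the NPPB UMIs. Without the highest cell of each gene, positive cells had NPPB at 172 CPM, NPPA at 155 CPM and CCN2 at 118 CPM. TNNT2, cardiac troponin T, was at 2411 CPM in positive and 2561 CPM in negative cells, and MYH6, the alpha myosin heavy chain, at 961 and 1282 CPM. Positive cells were deeper, with a median of 5366 UMIs against 3480, and the part of depth in these differences was not tested.

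NPPA-positive cells of cluster 2 with PD173074 were set beside their neighbours in the same way. The 598 positive cells had NR2F1 at 149 CPM, NR2F2 at 544 CPM and MYL7, the atrial light chain, at 10237 CPM, against 98.8, 413 and 8496 CPM in the 778 negative ones. TNNT2 was at 3081 CPM in positive and 3051 CPM in negative cells, and ANKRD1 at 5.84 and 3.29 CPM. Their median depths were 5723 and 4790 UMIs. In cluster 6 of that group, ANKRD1 was at 53.9 CPM in 227 NPPA-positive cells and 7.65 CPM in 447 negative ones. One positive cell held 38.7 of those UMIs, and the positive cells stood at 34.7 CPM when it was left out.

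**Figure D5:**
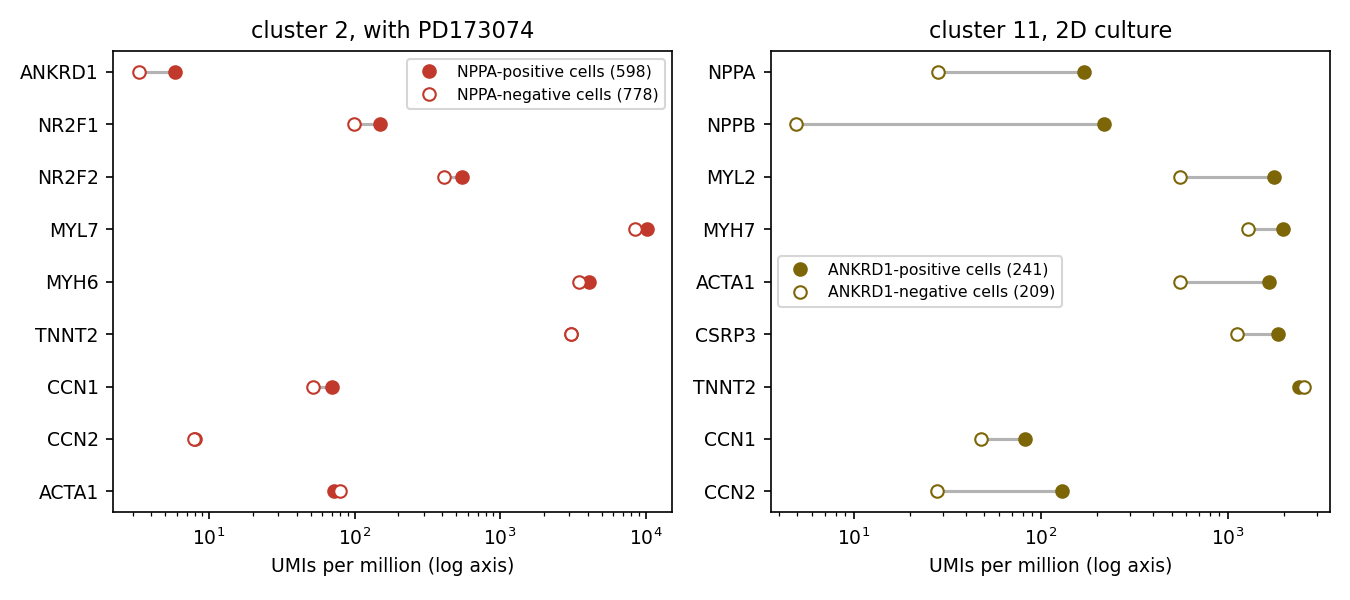
Levels of other genes in cells with (filled) and without (open) a UMI of NPPA in cluster 2 with PD173074, left, and of ANKRD1 in cluster 11 of 2D culture, right, in CPM on log axes. NPPB is at 218 CPM in ANKRD1-positive cells (172 CPM without its highest cell) and 4.92 CPM in ANKRD1-negative cells, while TNNT2 lies close together in both panels.

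In cells of other classes, NPPA and ANKRD1 went with different companions. The 35 NPPA-positive epithelial-like cells with PD173074 had MYL7 at 4250 CPM and TNNT2 at 1149 CPM, against 414 and 278 CPM in the 498 negative ones. ANKRD1-positive epithelial-like cells had TNNT2 at 306 CPM, against 412 CPM in negative ones, and CCN2 at 1052 CPM, against 696 CPM. In stromal-like cells of 2D culture, CCN2 was at 2147 CPM in ANKRD1-positive and 860 CPM in ANKRD1-negative cells.

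The profile of each gene was correlated with those of other genes, 11415 in all, over 29 combinations of cluster and group with at least 50 cells, as log2(CPM + 1). These points share 3 samples, and some clusters appear in several groups, so the values are a description. FSD2 and CD36, the fatty acid translocase, were most like NPPA (Pearson's r of 0.865 each), before UGP2 (0.839), S1PR1 (0.827), a receptor for sphingosine 1-phosphate, and SPTB (0.819), the erythroid beta spectrin. The genes most like NPPB were TMEM71 (0.693), LMOD2 (0.664), a leiomodin that lengthens thin filaments, MYL2 (0.663), STAT4 (0.653) and SYNM (0.623). Most like ANKRD1 were TEAD4 (0.784), MYH9 (0.756), the non-muscle myosin heavy chain, C1orf198 (0.751), AMOTL2 (0.744), a regulator and target of YAP, and TEAD1 (0.741). Among the 3 genes themselves, r was 0.495 for NPPB with ANKRD1, 0.184 for NPPA with NPPB and 0.152 for NPPA with ANKRD1. The values of r for NPPB lean on few cells. Its highest levels here were 138 CPM in cluster 11 and 60.0 CPM in cluster 8, both of 2D culture. One cell gave 97.5% of the NPPB in that cluster 8, which was at 1.51 CPM without it. Another cell gave 95.9% of the NPPB in cluster 12 without PD173074, which was at 0.501 CPM without it. The values of r were not recomputed without these cells.

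Gene lists around the 3 were counted in cardiomyocyte-like cells at 10 CPM and 1.5-fold, leaving the 3 out. With PD173074 over without it, 5.3% of 10583 genes were higher and 4.62% lower, with a median log2 ratio of -0.07. Of 6 measured natriuretic peptide pathway genes, 2 were higher and 0 lower (median 0.37). PRKG1, a protein kinase activated by cyclic GMP, stood at 312 CPM with PD173074 and at 163 CPM without it, and PDE3A, a cyclic nucleotide phosphodiesterase, at 99.8 and 37.5 CPM. CORIN, the protease that cleaves the ANP precursor, was at 355 and 535 CPM and did not pass. Receptors were scarce: NPR1 was under 0.1 CPM and NPR3 under 1 CPM in each group, and NPR2 was at 3.60 CPM with PD173074 and at 2.58 CPM without it.

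Of 15 stretch and YAP genes, 5 were higher and 1 lower with PD173074 (median 0.34), although ANKRD1 itself was not higher over these cells. Leaving out clusters mostly of another group, the log2 ratio of ANKRD1 was 0.42 (0.08 to 0.77). It was 1.83 (1.33 to 2.38) without its highest cell of the group without PD173074 as well. Over all cardiomyocyte-like cells, CCN1 was at 123 CPM with PD173074 and at 25.1 CPM without it. CCN2 was at 37.7 and 6.87 CPM, and THBS1, a matrix glycoprotein, at 26.1 and 8.09 CPM. FHL2, a LIM domain partner of titin, was the one lower, at 474 and 1092 CPM. Of 9 titin partners and ankyrin repeat genes 2 were higher and 0 lower (median 0.22): TRIM55, a sarcomere ubiquitin ligase, at 266 CPM with PD173074 and at 124 CPM without it, and DES, desmin, at 91.2 and 33.0 CPM. The ANKRD1 relatives ANKRD2 and ANKRD23 were under 1 CPM and at 5.29 to 6.53 CPM in the 3 groups.

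Of 20 regulators known from the NPPA promoter, 5 were higher and 4 lower (median 0.37). NR2F1 was at 72.3 CPM with PD173074 and at 7.53 CPM without it, and NR2F2 at 420 and 85.9 CPM. TBX3, a repressor of working muscle genes including NPPA, was at 61.3 CPM with PD173074 and at 264 CPM without it, and the ventricular factor gene IRX4 at 14.8 and 88.6 CPM. Of 12 hypertrophy and fetal programme genes 4 were higher and 2 lower (median -0.02). EDNRA, an endothelin receptor, was at 332 CPM with PD173074 and at 88.6 CPM without it, and ATP2A2, the sarcoplasmic calcium pump, at 922 and 394 CPM, while ACTA1 was at 63.7 and 117 CPM and MYH7 at 12.8 and 40.3 CPM. Of 9 trabecular genes 3 were higher and 3 lower (median 0.40), the lower ones including VCAN, versican, at 410 CPM with PD173074 and at 2022 CPM without it.

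Immediate early and dissociation genes moved with the same comparison, 10 of 21 being higher and 2 lower (median 0.70). EGR1 was at 248 CPM with PD173074 and at 78.6 CPM without it, and NR4A3 at 78.7 and 11.8 CPM. Their part in the differences of NPPA, CCN1 and CCN2 was not tested. Leaving out clusters mostly of another group, when 5.93% of genes were higher and 5.58% lower, gave 2 higher and 0 lower for the pathway, 6 and 1 for stretch genes, 3 and 0 for titin partners, 7 and 5 of 21 for promoter regulators, 4 and 0 for the fetal programme, 3 and 4 for trabecular genes and 10 and 2 for early genes.

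Without PD173074 over 2D culture, 2.53% of 10417 genes were higher and 0.71% lower, with a median of 0.06. Here NPPB and ANKRD1 counted as lower under the looser rule. Without its highest cell NPPB stood at 9.51 CPM in 2D culture, under the 10 CPM of that rule. No other gene passed among 6 of the natriuretic peptide pathway (median -0.31) and 14 stretch genes (median 0.00), and of 9 titin partners 2 were higher and 0 lower (median 0.35). Of 18 promoter regulators 3 were higher and 0 lower (median 0.30), TBX3 being at 264 CPM without PD173074 and 91.4 CPM in 2D culture. MYH7 was the one lower among 12 fetal programme genes (median -0.10), at 40.3 CPM without PD173074 and 134 CPM in 2D culture, and EDNRA the one higher. Trabecular genes had 0 of 8 higher and 1 lower (median -0.17), and early genes 6 of 19 higher and 1 lower (median 0.35). Leaving out clusters mostly of another group, when 4.54% of genes were higher and 2.22% lower, 1 of 6 pathway genes and 3 of 14 stretch genes were lower: PDE3A at 22.1 CPM without PD173074 and 58.0 CPM in 2D culture, CCN2 at 3.84 and 11.3 CPM, CSRP3, the muscle LIM protein, at 311 and 672 CPM, and THBS1 at 4.48 and 11.9 CPM. No gene of these 2 lists was higher. The counts higher and lower were then 1 and 0 of 9 titin partners and 6 and 0 of 19 promoter regulators. They were 0 and 3 of 12 for the fetal programme, 2 and 1 of 9 for trabecular genes and 6 and 2 of 18 for early genes. MYH7 was then at 11.2 CPM without PD173074 and 135 CPM in 2D culture.

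With PD173074 over 2D culture, 8.58% of 10656 genes were higher and 6.47% lower, with a median of -0.02. The counts higher and lower were 2 and 2 of 6 pathway genes (median 0.17), 6 and 2 of 15 stretch genes (0.56), 4 and 0 of 9 titin partners (0.45), 10 and 3 of 20 promoter regulators (0.55), 4 and 4 of 12 fetal programme genes (-0.22), 2 and 3 of 9 trabecular genes (0.41) and 13 and 0 of 21 early genes (1.03). CORIN was at 355 CPM with PD173074 and 735 CPM in 2D culture, and NR2F1 at 72.3 CPM and 0.047 CPM. This comparison shares its samples with the previous ones.

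The neighbours of NPPA on the chromosome set a limit on its reading. CLCN6, a chloride and proton exchanger gene that ends 2578 bases before NPPA, stood at 26.8 CPM with PD173074, 24.7 CPM without it and 29.2 CPM in 2D culture, without the pattern of NPPA. NPPA-AS1 is annotated over 1908 bases of NPPA on the opposite strand and was not among the features used here. The sources used here do not say whether counting used the strand. Whether any reads of NPPA-AS1 were counted for NPPA was not tested.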

How the data were processed

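Each of the 11 libraries came with the authors' deposited UMI counts, whole numbers by gene and barcode. Per the submitters' processing notes, Cell Ranger 7.0.0 and hg38 were used. The kit read the 3′ ends of transcripts in chemistry version 2 or 3, per the labels' protocols, which do not say which. The sources used here do not name the annotation release.

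Barcodes present in every run of a group were kept with at least 1000 UMIs, 500 genes and at most 30% mitochondrial UMIs (means over runs). Counts of the runs were summed, scaled and clustered (scanpy 1.11.5, Leiden, resolution 0.6) without the 3 genes, mitochondrial and ribosomal protein genes. Clusters with at least 10000 CPM of summed cardiomyocyte markers were called cardiomyocyte-like; that number was set after seeing the data. Other classes needed 3 markers among their 100 leading genes. Doublets were not removed.

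Levels are CPM (counts of a gene in every 1000000 UMIs) with exact Poisson intervals, and ratios have exact binomial intervals given the sum of both counts. A gene was called past 2-fold at 20 CPM, and gene lists used 1.5-fold at 10 CPM. Shares used cells thinned to 2000 UMIs per run with exact binomial (Clopper-Pearson) intervals, and a count of 0 was given the limit of 3 counts. Alternative scalings used edgeR 4.0.16 (TMM) and DESeq2 1.42.0 (size factors) on R 4.3.3, with no test. Named genes are the 3 members, the neighbour CLCN6, the 5 most alike of each, up to 4 of each list with the largest ratios, cell markers and fixed pathway genes. The members and lists were chosen with earlier results of these data known. Leaving out clusters with over 75% of another group was planned, but that number was set after seeing the data.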

Additional observations from a re-analysis of the deposited data

How the results depend on the processing

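No paired analysis was possible because no result comes from a test and the numbered libraries of a group are repeat runs of the same cells. Leaving out 1 run at a time (66 values) moved no result beyond its counting interval. The log2 ratios then ran from 2.34 to 2.37 for NPPA, -3.79 to -3.43 for NPPB and -0.43 to -0.36 for ANKRD1 with PD173074 over without it. They ran from 0.74 to 0.79, -2.74 to -2.65 and -1.46 to -1.39 without PD173074 over 2D culture, and from 3.09 to 3.14, -6.47 to -6.11 and -1.84 to -1.80 with PD173074 over 2D culture.

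Of 126 other alternative values of the 9 log2 ratios, 94 stayed within their counting intervals, 28 moved and 4 reversed; the cause was not tested. For NPPA with PD173074 over without it (2.35), the mean of single-cell levels gave 2.10, clustering at resolution 1.0 gave 2.15, all cells 1.98, leaving out clusters mostly of another group 3.92, leaving out the SHOX2 cluster 2.55 and a common cluster mix 0.10. For ANKRD1 in that comparison (-0.40), resolution 1.0 gave -0.64, and it reversed to 0.36 over all cells and 0.42 without clusters mostly of another group. Without PD173074 over 2D culture, NPPA (0.76) stood at 1.45 as the mean of single-cell levels, 0.16 at resolution 1.0 and 0.52 when the 3 genes entered the clustering, and it reversed to -0.78 without clusters mostly of another group and -0.026 at a common mix. NPPB (-2.68) stood at -3.52 at resolution 1.0 and -2.02 without its highest cell. ANKRD1 (-1.42) stood at -1.67 without the highest cell of each group, -2.22 at resolution 1.0, -1.78 with the 3 genes in the clustering, -0.87 over all cells, -2.34 without clusters mostly of another group and -0.23 at a common mix. With PD173074 over 2D culture, NPPA (3.11) stood at 3.55 as the mean of single-cell levels, 2.31 at resolution 1.0, 2.76 with the 3 genes in the clustering, 2.80 over all cells and 3.29 without the SHOX2 cluster. NPPB (-6.34) stood at -3.04 at a common mix. ANKRD1 (-1.82) stood at -2.86, -2.32 and -0.50 at resolution 1.0, with the 3 genes and over all cells. At a common mix it stood at -0.22. The common-mix values of ANKRD1 against 2D culture keep its highest cells of clusters 4 and 12. They were not recomputed without those cells.

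Shares of cells rose with the depth they were read at: 15 of 18 alternative shares for 1 gene moved, as did all 6 for pairs in 2D culture. There NPPA with NPPB was found in 0.202% of cells at 2000 UMIs, 0.093% at 1000 and 0.424% unthinned, NPPA with ANKRD1 in 0.41%, 0.184% and 0.839%, and NPPB with ANKRD1 in 0.375%, 0.226% and 0.622%. The ratio to the product of shares stayed above 1 in each case.

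Counts of genes called moved with the rule. With PD173074 over without it, 383 became 249 at 50 CPM, 850 at 1.5-fold and 106 at 4-fold. Without PD173074 over 2D culture, 76 became 119 at 10 CPM, 41 at 50 CPM, 237 at 1.5-fold and 10 at 4-fold. With PD173074 over 2D culture, 629 became 390 at 50 CPM, 1239 at 1.5-fold and 196 at 4-fold. TMM and size-factor scaling moved the median of all genes by at most 0.08.

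At resolution 1.0, clusters 0 and 1 of that clustering led with markers of other classes and were set aside, as was cluster 1 with the 3 genes included. No cluster was set aside otherwise, so counting them in gave no separate value. Leaving out the SHOX2 cluster or the highest cells and the common mix were chosen after seeing the data. With 1 sample a group, no value carries the spread between cultures, and NPPB with PD173074 rests on 4.3 UMIs.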
